A study of Mus musculus with 9 samples.

Results

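The mitochondrial respiratory chain and the ATP synthase are built from subunits that are mostly encoded in the nucleus, and 75 genes for such proteins were followed in mouse fat. They were chosen by a rule on names, set with earlier results of these data known and leaving out Cox8b. It took every gene whose single platform symbol starts with Nduf, Sdh, Uqcr or Atp5, or is Cox with a digit from 4 to 8. These are 75 of the 16299 genes that have at least 1 probe set with a single symbol, and 70 of the 75 were among the 11805 genes tested. By function, 69 of them encode subunits of complexes I to V. The other 6 share only the name or help the complexes form: the complex I assembly factors Ndufaf1 and Ndufaf2, Atp5s (now Dmac2l), Atp5sl (now Dmac2), the supercomplex factor Cox7a2l, and Cox4nb (now Emc8), a protein of the endoplasmic reticulum that is no part of the chain.

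RNA came from perigonadal white fat, the depot beside the gonads, of mice aged 4 months, and was hybridised to Affymetrix exon arrays. There were 3 arrays each of wild type (WT), of G609G/G609G and of LCS/LCS mice. G609G is known as a progeria allele of Lmna, from which the truncated lamin A called progerin is made, and LCS is known as a Lmna allele giving lamin C without lamin A. The labels used here name neither sex nor strain. Replicates are called biological in the series text, but no label ties an array to its own animal, so the p-values reflect array-to-array spread only, which may be technical.

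Complex I takes electrons from NADH and complex II from succinate. Complex III passes them to cytochrome c, and complex IV hands them to oxygen. The proton gradient that complexes I, III and IV build drives the ATP synthase, also called complex V. Several complex IV subunits exist as isoforms made by different genes in muscle and heart, in testis and in other tissues. White adipocytes hold few mitochondria compared with brown adipocytes or muscle fibres.

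Values are log2 intensities, 1 per gene and array, summarised from the gene's probe sets. As deposited, the G609G arrays were shifted down: the median of all tested genes was -0.46 in G609G minus WT and 0.05 in LCS minus WT. The values printed are therefore scaled so that the median gene has no shift, and a log2 fold is relative to the median gene. The offsets taken off lay between 0.11 and 0.19 on the WT arrays, between -0.34 and -0.28 on G609G and between 0.14 and 0.19 on LCS. A gene is called higher or lower where limma gave an adjusted p under 0.05 over all 11805 genes. Median array SDs of the tested members were 0.05 in WT, 0.06 in G609G and 0.05 in LCS (n = 3 each).

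The samples held the transcripts of fat. Of 10 listed markers of mature adipocytes 9 were measured, and their summed log2 level lay from 15.72 to 15.81 in WT, from 15.72 to 15.77 in G609G and from 15.84 to 15.87 in LCS. The brightest genes weigh most in such a sum. Single markers ran from -5.42 to 0.48 in G609G minus WT and from -0.17 to 1.11 in LCS minus WT. As deposited, Lep lay under the intensity filter of 4.86 on every G609G array. Skeletal muscle markers differed: 16 of 17 were measured, and their summed log2 level lay from 10.36 to 10.41 in WT, from 16.23 to 16.26 in G609G and from 11.15 to 11.19 in LCS. All 16 rose in G609G against WT, by 4.07 to 8.48. In LCS minus WT 3 rose and 1 fell, where 21.8% and 17.1% of all tested genes did, and 12 did not pass the test. The median there was 0.07 and the largest rise 1.58. With the values as deposited, 7 of them (Atp2a1, Myh2, Myh4, Mylpf, Pvalb, Ryr1 and Tnnc2) lay under the intensity filter of 4.86 on every WT array. On every LCS array 7 did too, Casq1 in place of Atp2a1, and on the G609G arrays 0 did so throughout. Muscle fibres are rich in mitochondria, and the part of muscle RNA in the changes of the respiratory chain genes in G609G was not tested. In whole tissue, fewer cells of a type and less RNA per cell cannot be told apart.

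Respiratory chain and ATP synthase genes were mostly higher in G609G than in WT relative to the median gene. Of the 70 tested members 52 rose and 6 fell, where 33.4% of all tested genes rose and 36.5% fell. Their median log2 fold was 0.29, against -0.01 for all tested genes. Apart from the muscle isoform Cox6a2, at 5.97, the rises were small, none above 0.83. Groups did not overlap for 55 members, 78.6% of those tested, against 70.8% of all tested genes. Members are bright on these arrays, and with tested genes split into 4 equal classes by mean intensity, 47 of the 70 lay in the brightest class. There 43 of the 47 rose, while 43.1% of all genes of that class did.

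The direction of these small changes depended on the scaling. With the values as deposited 5 members rose (Cox6a2, Ndufa5, Ndufa6, Cox5a and Cox7b) and 39 fell, where 8.27% of all genes rose and 70.1% fell, and the members' median was -0.16. The members' median stood above that of all genes. The scaling takes a single value off each array, so this gap is the same under either scaling by construction. Beyond those 5, no member's rise in G609G described below passed the test in the deposited values.

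**Figure D1:**
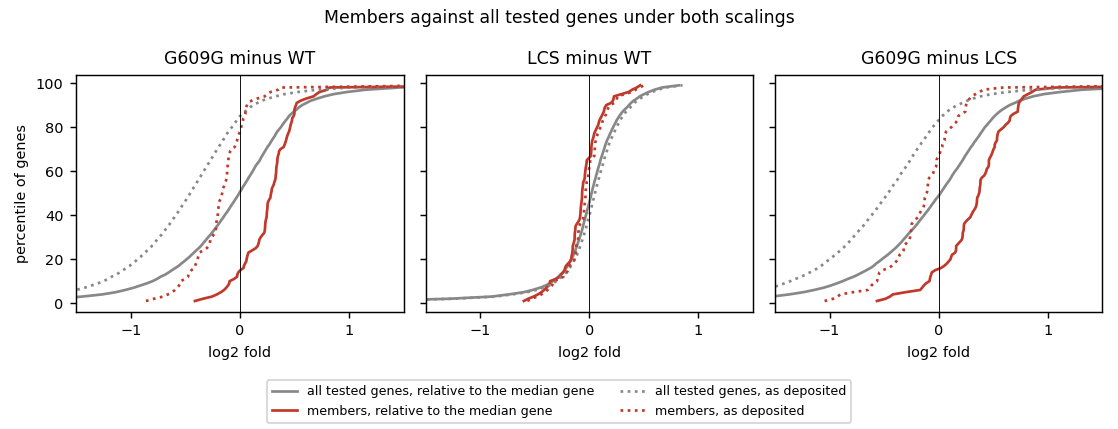
Cumulative percentiles (y axis) of the log2 fold (x axis, shown from -1.5 to 1.5) for the 70 tested members in red and all 11805 tested genes in grey, in 3 comparisons. Solid lines are relative to the median gene and dotted lines as deposited. In G609G minus WT the members lie to the right of all genes (medians 0.29 against -0.01, and -0.16 against -0.46 as deposited). This distance is the same on both scales by construction. In LCS minus WT the curves lie close together.

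Complex I, the NADH dehydrogenase, had 31 tested subunits in G609G minus WT, of which 21 rose and 3 fell. Its largest rises were in accessory subunits. Ndufa6 read 9.24, 9.26 and 9.45 in WT and 10.23, 10.06 and 10.14 in G609G, a log2 fold of 0.83 (SE 0.06, limma adjusted p = 1.65e-07). Ndufa5 read 7.44, 7.40 and 7.48 in WT and 8.28, 8.20 and 8.26 in G609G (0.81, SE 0.06, limma adjusted p = 1.02e-07). In both genes all G609G arrays lay above all WT arrays, and all probe sets, 4 in Ndufa6 and 7 in Ndufa5, were higher.

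Of the 6 tested core subunits of complex I, most of which carry the flavin or iron-sulphur groups that electrons pass, 5 rose. Ndufs7 had 12.34, 12.36 and 12.34 in WT and 12.82, 12.80 and 12.78 in G609G (0.45, SE 0.02, limma adjusted p = 7.02e-09). Ndufs1 rose by 0.25, Ndufs3 by 0.36, Ndufv1, which binds NADH, by 0.29, and Ndufv2 by 0.33. Ndufs8 was the exception, at -0.09 (SE 0.03, limma adjusted p = 0.0179); only 5 of its 7 probe sets were lower, and its call was lost without G609G replicate 1 or 3. The accessory subunits Ndufs4 (-0.19, SE 0.06, limma adjusted p = 0.00765) and Ndufv3 (-0.26, SE 0.08, limma adjusted p = 0.00906) also fell. Ndufs4, whose loss is known to cause complex I deficiency, was lower in all 9 probe sets, though its call was lost without WT replicate 1 (limma adjusted p = 0.0602). With the arrays' medians set equal none of these falls passed the test: Ndufs8 was at 0.075, Ndufs4 at -0.025 and Ndufv3 at -0.092, and 0 members were then called lower, also at an unadjusted p under 0.05.

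All 4 subunits of complex II, succinate dehydrogenase, rose in G609G minus WT. Sdhb, the iron-sulphur subunit, had 9.71, 9.62 and 9.62 in WT and 10.09, 10.06 and 10.09 in G609G (0.43, SE 0.04, limma adjusted p = 2.64e-06). The membrane anchor Sdhd rose by 0.50, the other anchor Sdhc by 0.25 and the flavoprotein Sdha by 0.28, and every probe set of the 4 genes, 17 of them in Sdha, was higher.

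All 7 subunits of complex III rose as well, with folds from 0.17 to 0.69. The Rieske iron-sulphur protein Uqcrfs1 led with 6.89, 6.63 and 6.97 in WT against 7.49, 7.45 and 7.62 in G609G (0.69, SE 0.10, limma adjusted p = 6.29e-05). The core proteins Uqcrc2 (0.51) and Uqcrc1 (0.34) were higher in all of their 16 and 18 probe sets. Neither group's arrays overlapped with the other's in any of these 3 genes.

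In the ATP synthase 11 of 12 tested subunits rose. The catalytic head subunits Atp5a1 and Atp5b rose by 0.35 (SE 0.03) and 0.18 (SE 0.03), the central stalk subunits Atp5c1, Atp5d and Atp5e by 0.32, 0.33 and 0.48, and Atp5g2 and Atp5g3, which encode the proton-carrying ring protein, by 0.46 and 0.48. The side stalk subunit Atp5j did not pass the test (-0.01, SE 0.09, limma adjusted p = 0.919). Its 5 probe sets disagreed, with 3 higher and a range from -0.93 to 0.35. Further probe sets carry the name Atp5j beside a second symbol and were not part of the value. They differed by 0.06, 0.23, 0.30 and 0.13. Among the 6 genes that are not subunits, 2 rose and 2 fell, near the shares of all tested genes (33.4% and 36.5%). As deposited 0 rose and 5 fell, where 8.27% and 70.1% of all genes did. Scaled, Atp5sl was at 0.24 and Cox7a2l at 0.14, Atp5s at -0.39 and Ndufaf2 at -0.47. The Cox7a2l call was lost without any 1 of 5 arrays and the Ndufaf2 call without any 1 of 3.

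**Figure D2:**
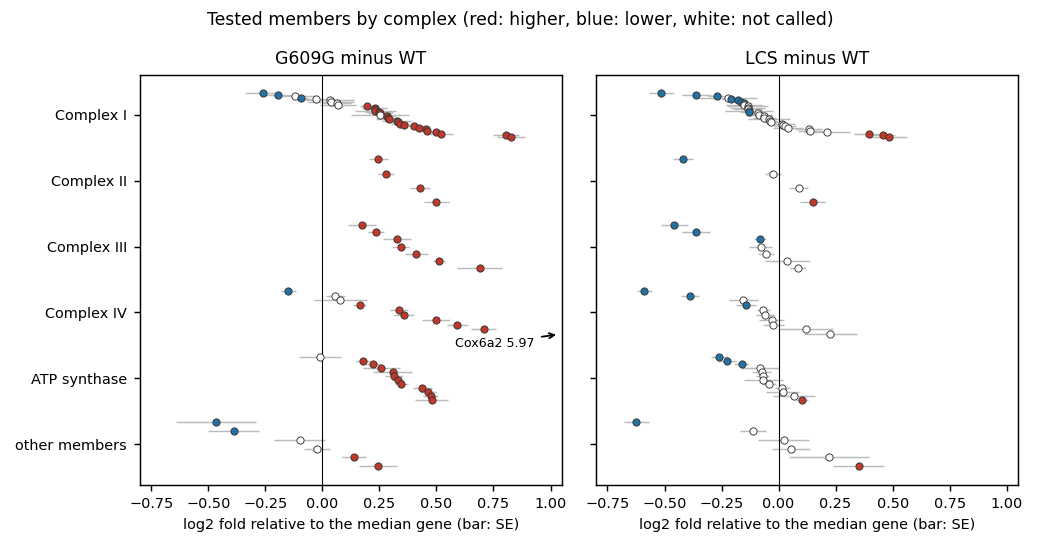
Log2 folds relative to the median gene (x axis, with SE bars) of the 70 tested members, in rows by complex, for G609G minus WT on the left and LCS minus WT on the right. Red points were called higher, blue lower and white neither; Cox6a2, at 5.97, lies off the left panel's scale and is marked by an arrow. On the left every subunit of complexes II and III is red, and on the right most points lie near 0.

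Complex IV, cytochrome c oxidase, held the member that differed most. Cox6a2 encodes the muscle and heart form of subunit 6a. It read 6.25, 6.54 and 6.0 in WT, 12.34, 12.16 and 12.19 in G609G and 6.18, 6.49 and 6.48 in LCS. The G609G arrays stood far above the other 6, whose values overlapped. In G609G minus WT the log2 fold was 5.97 (SE 0.12, limma adjusted p = 8.91e-13), or 62.5-fold, and it was 5.52 in the deposited values. Its 5 probe sets rose by 4.47 to 7.94. In LCS minus WT it did not pass the test (0.12, SE 0.12, limma adjusted p = 0.49). The rise of Cox6a2 lay within the range of the 16 skeletal muscle markers in the same arrays.

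Cox6a1, the form of the same subunit made in most tissues, changed far less. Its values were 12.46, 12.53 and 12.49 in WT, 12.65, 12.66 and 12.67 in G609G and 12.42, 12.48 and 12.39 in LCS. It rose by 0.16 in G609G (SE 0.03, limma adjusted p = 0.000208), a call that was lost with quantile normalization (0.01, limma adjusted p = 0.882). Cox8b, known as the muscle and heart form of subunit 8, is not among the 75 members. It read 9.05, 8.94 and 8.95 in WT and 11.78, 11.77 and 11.72 in G609G. The rise was 2.78 (SE 0.04, limma adjusted p = 3.46e-14). Cox8b thus lay above the intensity filter on every WT array. Of the 16 measured skeletal muscle markers, 7 lay under it on every WT array as deposited, and the others did not. Which cells the Cox8b RNA came from was not tested, in WT or in G609G. The counterpart of Cox8b in other tissues, Cox8a, did not pass the test (0.06, SE 0.04, limma adjusted p = 0.236). Cox7a1 of muscle and heart, Cox6b2 and Cox8c of testis, and Ndufa4l2, Cox5b and Atp5g1 were not analysed here.

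Of the other 8 tested complex IV genes 5 rose in G609G minus WT. Cox5a had 7.92, 7.98 and 7.98 in WT against 8.61, 8.62 and 8.78 (0.71, SE 0.06, limma adjusted p = 2.64e-07), with all 6 probe sets higher. Cox7b rose by 0.59, Ndufa4, now counted to complex IV, by 0.50, Cox7a2 by 0.36 and Cox4i1 by 0.34. Cox4i2, a form of subunit 4 known from lung, did not pass (0.08, SE 0.12, limma adjusted p = 0.559). Cox6b1, which helps hold the enzyme's dimer together, fell by 0.15 on the log2 scale (SE 0.03, limma adjusted p = 0.00134), yet only 6 of its 8 probe sets were lower, and with the arrays' medians set equal it was at 0.02.

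**Figure D3:**
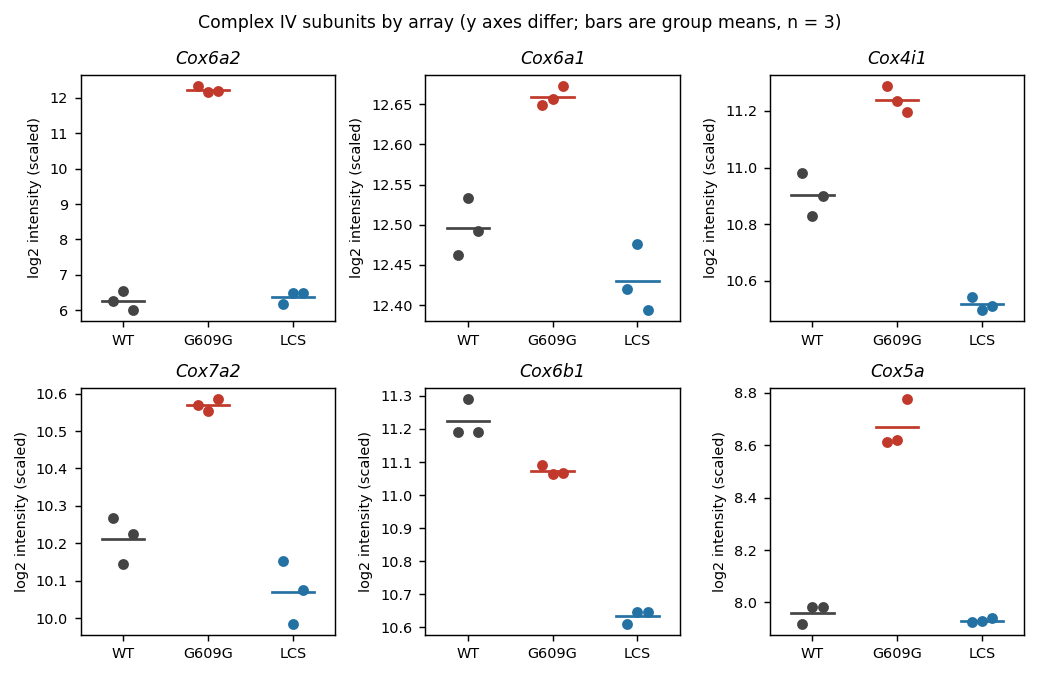
Scaled log2 intensity (y axis, a separate range in each panel) of 6 complex IV genes on the 3 arrays of each group (points; bars are group means). Cox6a2 stands near 12 in G609G and near 6 in the other groups, whereas Cox6a1 lies between 12.39 and 12.67 on all arrays. Cox4i1 is highest in G609G and lowest in LCS, and Cox6b1 is highest in WT.

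The 250 bases before the annotated start are shown for 4 members that stand for different patterns: Cox6a1, the counterpart of Cox6a2; Ndufa6, with the largest rise after Cox6a2; Sdhb, called higher in G609G and lower in LCS; and Cox6b1, called lower in both. Sequences are from RefSeq, build GRCm38.p6, written 5′ to 3′ on the gene's strand. Capitals mark matches, on either strand, to the motif letters given after them.
Cox6a1 (chr5:115348959-115349208, minus strand): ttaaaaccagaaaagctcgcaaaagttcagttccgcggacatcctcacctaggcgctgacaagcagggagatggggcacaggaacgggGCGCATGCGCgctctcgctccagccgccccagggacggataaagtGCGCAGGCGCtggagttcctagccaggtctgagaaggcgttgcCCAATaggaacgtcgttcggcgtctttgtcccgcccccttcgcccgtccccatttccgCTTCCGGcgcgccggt
Ndufa6 (chr15:82354292-82354541, minus strand): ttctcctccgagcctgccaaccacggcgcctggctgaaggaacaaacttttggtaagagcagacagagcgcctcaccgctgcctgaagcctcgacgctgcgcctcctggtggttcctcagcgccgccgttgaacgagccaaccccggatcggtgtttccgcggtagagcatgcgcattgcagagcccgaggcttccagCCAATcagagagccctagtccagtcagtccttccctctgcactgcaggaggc
Sdhb (chr4:140961021-140961270, plus strand): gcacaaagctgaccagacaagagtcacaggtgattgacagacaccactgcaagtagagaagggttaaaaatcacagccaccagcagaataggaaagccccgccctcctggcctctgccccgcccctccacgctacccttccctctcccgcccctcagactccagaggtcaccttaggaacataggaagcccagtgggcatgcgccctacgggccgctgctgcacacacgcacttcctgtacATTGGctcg
Cox6b1 (chr7:30626115-30626364, minus strand): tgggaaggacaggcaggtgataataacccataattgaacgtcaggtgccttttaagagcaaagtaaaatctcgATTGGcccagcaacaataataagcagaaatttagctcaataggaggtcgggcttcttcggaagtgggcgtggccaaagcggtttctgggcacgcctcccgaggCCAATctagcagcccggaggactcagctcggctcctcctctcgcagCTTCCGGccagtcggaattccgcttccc

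RefSeq promoter windows were matched for 62 of the 75 members, 68 windows in all. No window was matched for Cox6a2, so its promoter was not searched and is not in these counts. The letters GCGC and TGCGC with 1 base between them, the core bound by NRF1, a known activator of respiratory genes, were in 13 of these windows (19.1%) against 3.74% of all 32851 windows. The ETS letters CCGGAAG, read by GABP, were in 11 (16.2%) against 6.91%, and CCAAT in 28 (41.2%) against 33.8%. The letters AAGATGGCG, read by YY1, were in 2 (2.94%) against 0.606%, and TCAAGGTCA, read by oestrogen-related receptors, in 1 (1.47%) against 0.387%. The muscle E-box CAGCTG was in 5 (7.35%) against 13%, TATAAA in 6 (8.82%) against 12.4%, and the MEF2 letters CTA and TAG with 4 bases between them in 0 against 3.20%. In the 4 windows shown no matches of different motifs overlap. These are counts of letters over windows whose base composition was not matched, and a match is not a site of binding.

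In LCS fat the respiratory chain genes lay close to WT, and more of them fell than rose. Of 70 tested members 6 rose and 19 fell, where 21.8% of all tested genes rose and 17.1% fell, and 45 did not pass the test. Their median log2 fold was -0.07 against 0.02 for all tested genes. The groups did not overlap for 33 members (47.1%), against 56.7% of all tested genes. With the values as deposited 6 rose and 15 fell (21.8% and 13.1% of all genes), so here the scaling changed little, but quantile normalization called 33 lower and array weights called 11 higher. No rise reached a fold of 1.5.

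The falls were spread over the complexes. Complex IV and the supercomplex factor held the deepest. Cox6b1 had 11.19, 11.29 and 11.19 in WT against 10.61, 10.65 and 10.65 in LCS, a fall of 0.59 on the log2 scale (SE 0.03, limma adjusted p = 3.92e-08), with all 8 probe sets lower. Cox4i1, the form of subunit 4 found in most tissues, had 10.98, 10.83 and 10.90 against 10.54, 10.50 and 10.51 (-0.39, SE 0.04, limma adjusted p = 9.54e-06), again with every probe set lower. Both genes separated the LCS arrays from all others.

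Cox7a2l, which joins complexes III and IV into supercomplexes, read 9.21, 9.32 and 9.38 in WT and 8.67, 8.74 and 8.63 in LCS (-0.62, SE 0.05, limma adjusted p = 2.11e-06). Its 4 probe sets disagreed. Probe set 5095849 averaged 6.98 ± 0.61 on the WT arrays and 6.37 ± 0.47 on the G609G arrays, but 3.60 ± 0.11 on the LCS arrays (SD, n = 3 each). For probe set 5063323 the same means were 10.84 ± 0.06, 10.87 ± 0.07 and 9.73 ± 0.08. The remaining probe sets, 4447490 and 5436140, differed between LCS and WT by 0.01 and -0.02. The gene value, from the median polish, thus stands for probe sets that did not move together. A further 4 probe sets carry the name beside a second symbol and were not part of the value; they differed by -0.85, -0.54, -0.40 and 0.52.

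Of all tested genes 17.1% fell and 21.8% rose in LCS minus WT. In complex III 3 of 7 subunits fell: the hinge protein Uqcrh (-0.46, SE 0.06), the small subunit Uqcr, now Uqcr11 (-0.36, SE 0.06), and Uqcrc2 (-0.08, SE 0.03, limma adjusted p = 0.0328, lost without WT replicate 1 or LCS replicate 1 or 3). Complex II split. Sdhb had 9.71, 9.62 and 9.62 in WT and 9.19, 9.32 and 9.19 in LCS (-0.42, SE 0.04, limma adjusted p = 1.04e-05), with all 9 probe sets lower. Sdhd was called higher at 0.15, but lost the call without any 1 of the 6 arrays compared, and Sdha (-0.02, SE 0.04) and Sdhc (0.09, SE 0.04) did not pass. In the ATP synthase Atp5g2, Atp5c1 and Atp5j2 fell, by 0.26, 0.22 and 0.16 on the log2 scale, and Atp5d rose by 0.10.

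Complex I had 8 lower and 3 higher of 31 subunits, where 17.1% of all tested genes were lower and 21.8% higher. Ndufs4 fell most, with 9.89, 9.75 and 9.75 in WT against 9.27, 9.36 and 9.22 in LCS (-0.51, SE 0.06, limma adjusted p = 1.35e-05), and all 9 probe sets were lower. Ndufa6, which rose in G609G, was at -0.36 (SE 0.06, limma adjusted p = 0.000598). The 3 that rose were the accessory subunits Ndufa2 (0.48, SE 0.08), Ndufs6 (0.46, SE 0.05) and Ndufb8 (0.40, SE 0.07), each with all of its 5, 7 or 8 probe sets higher. Ndufs6 read 9.48, 9.31 and 9.38 in WT, 9.99, 9.92 and 9.83 in G609G and 9.82, 9.88 and 9.85 in LCS, so that both mutant groups lay above WT. The assembly factor Ndufaf1 was at 0.35 (SE 0.11, limma adjusted p = 0.0256), a call lost without any 1 of 4 arrays.

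**Figure D4:**
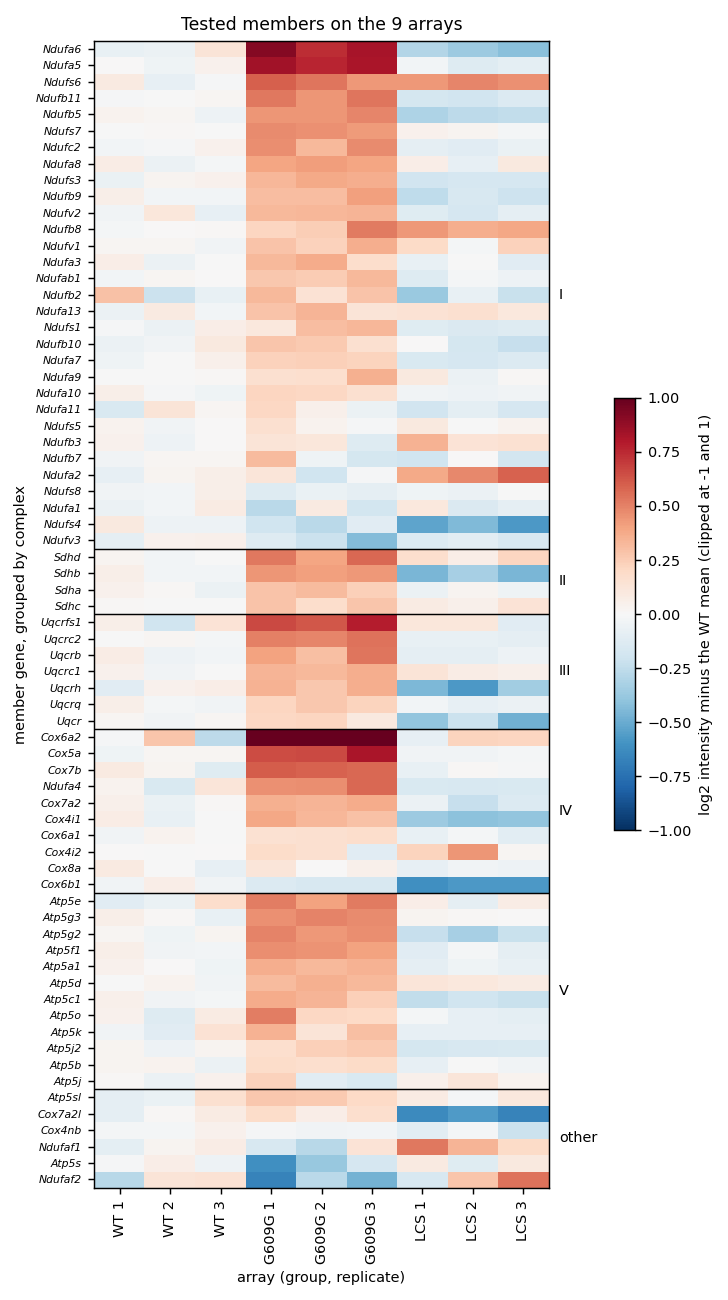
The 70 tested members (rows, by complex) on the 9 arrays (columns), coloured by scaled log2 intensity minus the gene's WT mean, clipped at -1 and 1. The G609G columns are red for most genes of complexes II, III and V, and the row of Cox6a2 is clipped there. Rows such as Ndufs4, Cox4i1, Cox6b1 and Cox7a2l are blue in all 3 LCS columns.

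The direct comparison of the mutants, G609G minus LCS, shares its arrays with both comparisons above. It called 53 members higher and 4 lower of 70, where 36.5% and 36.7% of all tested genes were, with a median of 0.37 against 0.02. Groups did not overlap for 60 members, against 74.9% of all tested genes. Deposited values gave 13 higher and 32 lower, where 9.38% and 69.1% of all genes were. All 7 complex III and all 4 complex II subunits were higher in G609G relative to the median gene, and 9 of 10 in complex IV. After Cox6a2 (5.85, SE 0.12) the largest differences were Ndufa6 (1.19, SE 0.06), Ndufa5 (0.89, SE 0.06), Sdhb (0.85, SE 0.04), Uqcrh (0.78, SE 0.06) and Cox7a2l (0.76, SE 0.05), and each of these was also higher in the deposited values. Lower in G609G than in LCS were Ndufa2 (-0.51), Ndufaf2 (-0.69), Ndufaf1 (-0.45) and Atp5s (-0.41), of which Ndufa2 is the sole subunit. Ndufs6 and Ndufb8, which rose in both mutants against WT, did not pass the test between them (0.06, SE 0.05, and -0.07, SE 0.07).

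Most probe sets of the called members had the direction of their gene in the scaled values. Each gene value is made from these same probe sets, so much of this agreement is built in. The share over all called genes was not counted. In G609G minus WT 396 of the 430 probe sets of the 52 higher members were higher, and 27 of these genes had all of theirs higher. In LCS minus WT 133 of the 148 probe sets of the 19 lower members were lower, with all lower in 11 genes. Ndufa4 was an exception in G609G, with a gene value of 0.50 and probe sets from -0.83 to 0.73.

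For 5 members no test was made. Cox6c, Cox7c and Atp5h had 1 probe set each and Ndufa12 had 2, under the minimum of 3. Cox6c read 13.14, 13.24 and 13.03 in WT, 13.44, 13.50 and 13.41 in G609G and from 12.98 to 13.12 in LCS, with G609G above the other groups. The group means of Cox7c were 11.68 (WT), 12.09 (G609G) and 11.53 (LCS), and Ndufa12 had 11.43, 11.83 and 11.33. The arrays of Atp5h overlapped between groups. Cox7b2, a testis form, lay under the intensity filter with means of 3.40, 3.37 and 2.93.

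Genes that work beside these complexes were taken from lists outside the naming rule. In G609G minus WT 33.4% of all tested genes rose and 36.5% fell, and as deposited 8.27% and 70.1%. For LCS minus WT the shares were 21.8% and 17.1%. Of 17 tested enzymes of the citric acid cycle and pyruvate dehydrogenase, which feed the chain, 9 rose and 1 fell in G609G minus WT. Their median was 0.17. As deposited 1 rose and 12 fell, near the shares of all genes, with a median of -0.28. Scaled, Pdhb was at 0.56 and Dlst at 0.47 (SE 0.04 and 0.03). In LCS minus WT 1 rose and 5 fell, among them Pdhb (-0.33, SE 0.04) and Pdha1 (-0.32, SE 0.03). Of 7 tested genes of ATP export and its control 6 rose and 1 fell in G609G, and as deposited 2 rose and 3 fell. The scaled rises were led by the muscle and heart carrier Slc25a4 (1.01, SE 0.04), which trades ADP for ATP, and the outer membrane channel Vdac1 (0.57, SE 0.03). Atpif1, an inhibitor of the ATP synthase, fell in G609G (-0.16, SE 0.05) and in LCS (-0.27, SE 0.05), where 1 gene of the list rose and 2 fell.

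Electron carriers and ubiquinone synthesis had 5 of 15 tested genes higher and 2 lower in G609G minus WT and a median of 0.09, near the shares of all tested genes (33.4% and 36.5%), and 4 and 2 in LCS minus WT. As deposited 0 rose and 12 fell in G609G. The electron transfer flavoprotein dehydrogenase Etfdh was at 0.56 (SE 0.05) in G609G. Of 20 tested assembly factors 7 rose and 8 fell in G609G, with a median of -0.02, again near those shares, and as deposited 0 rose and 14 fell. Atpaf2, which helps to assemble the ATP synthase, was at -0.66 (SE 0.06) and Acad9, which serves complex I, also at -0.66 (SE 0.07). In LCS 6 rose and 2 fell, with Cox15, needed for haem a, at 0.84 (SE 0.09).

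Regulators of mitochondrial biogenesis had 10 of 20 tested genes higher and 2 lower in G609G, with a median of 0.23. Of all tested genes 33.4% and 36.5% were. In LCS 2 were higher and 2 lower, against 21.8% and 17.1% of all genes. As deposited 4 were higher and 9 lower in G609G, with a median of -0.22, against 8.27% and 70.1% of all genes. Ppargc1a, the coactivator that drives respiratory gene transcription, read 7.57, 7.55 and 7.49 in WT, 9.04, 9.06 and 9.19 in G609G and 6.91, 6.68 and 6.49 in LCS. It rose in G609G (1.56, SE 0.09, limma adjusted p = 1.83e-08; 1.11 as deposited) and fell in LCS (-0.84, SE 0.09, limma adjusted p = 1.61e-05), and the 3 groups did not overlap. Gabpb1 (1.52, SE 0.11) and the mitochondrial transcription factor Tfb2m (1.14, SE 0.05) rose in G609G, and Tfb1m fell (-0.93, SE 0.07).

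Other cell types that carry mitochondria also differed in their markers. The shares of all tested genes were 33.4% higher and 36.5% lower in G609G minus WT, and 21.8% and 17.1% in LCS minus WT. As deposited they were 8.27% and 70.1% in G609G minus WT. Of 5 tested brown adipocyte markers 2 rose and 1 fell in G609G minus WT and 2 fell in LCS minus WT; as deposited 1 rose and 2 fell in G609G. The summed log2 level of the 7 measured brown markers lay from 8.30 to 8.39 in WT and from 8.58 to 8.69 in G609G. In LCS it lay from 7.96 to 8.10. The uncoupling protein Ucp1, which averaged 5.96 on WT arrays, lay under the intensity filter on every G609G and LCS array in the deposited values. Otop1 also lay under it on every G609G array, and Dio2 and Elovl3 on every WT and LCS array. Of 3 tested slow and heart muscle markers 2 rose in G609G. Among 9 macrophage markers 8 fell in G609G and 8 rose in LCS, among 6 endothelial markers 5 rose and 1 fell in both (3 and 3 in G609G as deposited), and among 11 epididymis and testis markers 2 rose and 9 fell in G609G, against 3 and 6 in LCS. Of the 9 adipocyte markers 3 rose and 5 fell in G609G (0 and 8 as deposited), and 4 rose and 1 fell in LCS. What these cell types contribute to the members' values was not tested.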

How the data were processed

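The members and gene lists were chosen with earlier results of these data known. Per the labels' protocols, RNA was fragmented and biotinylated for exon arrays. The authors deposited log2 intensities for 229581 probe sets on 9 arrays. Their normalization and software are not given in the sources used here, and the submitters' processing notes name the build mm9. Gene symbols came from the platform annotation. The 208397 probe sets with 1 symbol were median-polished to gene values, with 10 rounds as the limit. A gene was tested if it had 3 or more probe sets and its mean exceeded the 25th percentile, 4.86. From each array the median of its deviations from gene means was taken off, and limma (lmFit, eBayes with a trend) was fitted over all 9 arrays with Benjamini-Hochberg adjustment at 0.05. The steps were tested on simulated data. The number of arrays limits the precision.

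Genes named are the isoform and core lists, the 6 largest rises and falls of each comparison among called members whose groups do not overlap, called members against their complex, untested members, Cox8b, and up to 4 genes of each companion list by adjusted p. Probe sets, Uqcr, Ndufs3, Ndufs7, Atp5sl, Atp5j and Atp5j2 were named, and the 4 brightness classes were used, after their values were seen. Alternatives covered scaling, summary, filters, variance model, array weights, the arrays fitted, a replicate block, the methods' t-test and 1 array left out in turn. R 4.3.3, limma 3.58.1, data.table version 1.17.8, Python 3.11.15, pandas 2.3.3 and matplotlib 3.10.9 were used. Promoter sequences are RefSeq's, build GRCm38.p6.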

Additional observations from a re-analysis of the deposited data

How the results depend on the processing

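With the values as deposited, 5 members were higher and 39 lower than WT in G609G, and 13 and 32 against LCS; the medians were -0.16, -0.035 (LCS minus WT) and -0.11. Among the members named by the rule, those that turned in G609G minus WT were Atp5a1 (-0.10), Atp5b (-0.27), Atp5c1 (-0.13), Atp5d (-0.12), Cox4i1 (-0.11), Cox4i2 (-0.37), Cox6a1 (-0.28), Cox7a2 (-0.092), Cox7a2l (-0.31), Cox8a (-0.39), Ndufb8 (-0.12), Ndufs1 (-0.20), Ndufv1 (-0.16), Ndufv2 (-0.12), Sdha (-0.17), Sdhb (-0.02), Sdhc (-0.20), Uqcrc1 (-0.11) and Uqcrh (-0.12); of members named after their values were seen, Atp5j2 (-0.23), Atp5sl (-0.20), Ndufs3 (-0.091) and Uqcr (-0.28) turned too. In G609G minus LCS they were Atp5a1 (-0.064), Atp5b (-0.26), Atp5d (-0.25), Atp5e (-0.02), Atp5g3 (-0.02), Cox6a1 (-0.25), Cox6b1 (-0.041), Cox8a (-0.36), Ndufs1 (-0.10), Ndufs4 (-0.16), Ndufs6 (-0.42), Ndufv1 (-0.32), Ndufv2 (-0.02), Sdha (-0.18), Sdhc (-0.32), Sdhd (-0.13) and Uqcrc1 (-0.22), and of the members named later Atp5j2 (-0.097), Atp5sl (-0.29) and Ndufs7 (-0.047). This alternative leaves out the subtraction of the array offsets. With array medians set equal, limma called 0 members lower in G609G minus WT (0 at an unadjusted p under 0.05), the medians were 0.45, -0.049 and 0.52, and Cox6b1 (0.019) and Ndufs8 (0.075, and 0.092 against LCS) turned. Quantile normalization called 33 lower in LCS minus WT (median -0.10) and turned Atp5g3 there (-0.10). A plain mean of probe sets gave G609G medians of 0.33 against WT and 0.40 against LCS, and leaving out dim probe sets gave 0.35 and 0.42. With no filter on dim genes, the medians were 0.15, -0.043 and 0.22, 11 members were lower in G609G minus LCS, and Cox8a turned there (-0.039). A filter at the 50th percentile, which tests fewer genes, gave medians of 0.36, -0.083 and 0.44, with 3 lower than WT in G609G and 2 lower than LCS. Array weights called 11 higher in LCS minus WT. Asking for a fold of 1.5 as well left 6 higher and 0 lower in G609G than in WT, 0 and 2 in LCS than in WT, and 15 and 1 in G609G than in LCS. Of all 11805 tested genes it left, in the same order, 1138 and 1911, 380 and 615, and 1415 and 2059. For the members the methods' t-test at that fold gave the same counts as limma, and after Benjamini-Hochberg adjustment 15 and 0 in the last. Beside these counts of 0, at an unadjusted p under 0.05 and without the fold, 6 members by limma and 4 by the methods' t-test were lower in G609G than in WT, 9 by both were higher in LCS than in WT, and 4 by the methods' t-test were lower in G609G than in LCS. Leaving out 1 array at a time gave 48 to 51 higher, 4 to 7 lower and medians of 0.29 to 0.30 for G609G against WT. Between LCS and WT it gave 4 to 7, 17 to 20 and -0.08 to -0.05, and in G609G minus LCS 50 to 56, 4 to 5 and 0.37 to 0.39. The replicate numbers were not taken to pair arrays: deviations of same-numbered arrays correlated at 0.119, 0.0962 and 0.230 in G609G and WT and from -0.0646 to 0.104 in LCS and WT, though the best match of 8 of 9 arrays carried their own number. With a replicate block over 9 arrays, 52 were higher and 6 lower in G609G than in WT, 7 and 19 in LCS than in WT, and 54 and 4 in G609G than in LCS. Why the other values moved was not tested. The number of arrays limits what small folds can show.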
